A study of Mus musculus with 14 samples.

Results

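The noncoding genes followed here carry small nucleolar RNAs (snoRNAs) in their introns and were read across all 5 groups of the study: Zfas1, Gas5, Snhg1, Snhg3, Snhg5, Snhg6, Snhg8 and Snhg12. They are 8 of the 55291 genes of the count table, and all 8 were among the 17933 genes with enough counts to be tested. The family was selected on the measured counts of Zfas1 in vehicle, which had been seen far above the other groups. Every value of a member against vehicle is therefore a description, without a test. Tests of members are given only between the 4 groups without vehicle.

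RNA was sequenced from lung tumor nodules, snap frozen, of the mouse strain C57BL/6. All of them carried the genotype HER2 Exon20YVMA, an insertion mutation of the receptor tyrosine kinase HER2. Long-term treatment gave 5 groups: vehicle (2 libraries), the tyrosine kinase inhibitor mobocertinib (TAK-788; 3 libraries), T-DM1 (3 libraries), both drugs combined (3 libraries), and nodules that had acquired resistance to mobocertinib given alone (3 libraries). T-DM1 is trastuzumab emtansine, an antibody against HER2 that delivers a microtubule poison. The labels do not give the ages of the mice, the doses, the length of treatment, the promoter or Cre line behind the allele, or whether each library came from a separate mouse. The p-values thus cover the spread between these libraries, which may be technical. Normal lung was not analysed here.

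The libraries held 19344015 to 31287261 counts. All 8 epithelial markers of lung tumors were detected in every library. In make-up, vehicle differed from the remaining 12 libraries. Coding genes with a median transcript under 1 kb took 39.9% and 46.1% of their counts, against 11.8% to 19.9% elsewhere. Genes of ribosomal proteins held 19.4% and 20.1% of vehicle counts, and 3.39% to 7.19% in the rest. Marker sums are in CPM (counts scaled to library size) that was further scaled by edgeR's factors for library composition. They are therefore not shares of counts. The factors were 0.677 and 0.542 in vehicle and 0.988 to 1.23 elsewhere, which raised every vehicle sum. Summed epithelial markers lay at 134393 and 198848 CPM in vehicle and at 8644 to 69491 elsewhere. Gene by gene the 8 went both ways: in the mean of the other groups against vehicle 1 was called lower and 1 higher, with log2 fold changes from -3.26 to 1.95 and a median of -0.55. Summed alveolar macrophage markers lay at 8187 and 9463 against 409 to 3450, and neutrophil markers at 442 and 561 against 12.2 to 276. Endothelial markers lay lower in vehicle, at 107 and 154 against 291 to 835, as did fibroblast markers, at 274 and 277 against 339 to 3494. The part of these differences in any value against vehicle was not tested. In bulk tissue, fewer cells of a type and less RNA per cell cannot be told apart.

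A snoRNA host gene is transcribed as a long precursor, and its introns are processed into snoRNAs, which guide the chemical modification or cleavage of ribosomal RNA. The spliced exons that remain often encode no protein, and in several of these genes they carry short reading frames that expose them to nonsense-mediated decay when translated. Many host genes start with a run of pyrimidines, the 5′ terminal oligopyrimidine (TOP) motif shared with messenger RNAs of ribosomal proteins, and Gas5 was first described as a transcript that accumulates in growth-arrested cells.

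In the mm10 annotation of GENCODE M21 the 8 genes hold 32 snoRNA entries, all of them inside introns of at least one transcript. Zfas1, on the plus strand at chr2:167062934-167065862, holds 3 snoRNAs of the box C/D kind, which guide 2′-O-methylation. They are printed because they are what this gene is processed into besides its spliced RNA, and Zfas1 is the member that varied most. Capitals mark box C (TGATGA with the A or G before it, where there is one) and box D (CTGA), and all 3 lie on the plus strand. They cover chr2:167063473-167063565, chr2:167064998-167065086 and chr2:167065276-167065365, in this order.
Gm25878: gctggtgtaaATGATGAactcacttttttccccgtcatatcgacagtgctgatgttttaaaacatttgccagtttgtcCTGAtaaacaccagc
Gm23201: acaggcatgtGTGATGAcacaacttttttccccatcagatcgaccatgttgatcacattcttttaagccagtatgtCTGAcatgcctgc
Snord12: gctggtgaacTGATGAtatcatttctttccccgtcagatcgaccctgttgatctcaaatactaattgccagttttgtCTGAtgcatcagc
The 3 sequences are 93, 89 and 90 bases long, and the longest run they all share is 7 bases. Over the 8 genes, the letters of box C near the 5′ end together with those of box D near the 3′ end were found in 20 of the 32 entries.

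The starts of the host genes were looked up in RefSeq promoter sequences of GRCm38.p6, where 7 of the 8 members had an entry (Snhg6 had none). Each line below runs from 45 bases before the start to 30 bases from it, 5′ to 3′ on the gene's own strand. Capitals mark TATAAA or TATATA between 45 and 15 bases before the start, and a pyrimidine run, meaning a C followed by at least 4 more C or T, that begins within 10 bases of the start. They are shown because the members moved together against vehicle and the run is the letter pattern of TOP genes. The windows are chr2:167062889-167062963 (plus strand) for Zfas1, chr1:161035121-161035195 (plus) for Gas5, chr19:8723442-8723516 (plus) for Snhg1, chr4:132353657-132353731 (minus) for Snhg3, chr9:88522868-88522942 (minus) for Snhg5, chr3:123508307-123508381 (minus) for Snhg8 and chr4:132308633-132308707 (plus) for Snhg12.
Zfas1: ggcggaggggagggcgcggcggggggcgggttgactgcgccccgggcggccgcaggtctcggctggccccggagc
Gas5: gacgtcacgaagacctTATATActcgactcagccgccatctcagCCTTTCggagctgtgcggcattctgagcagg
Snhg1: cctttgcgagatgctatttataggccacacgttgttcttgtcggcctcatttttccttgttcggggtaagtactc
Snhg3: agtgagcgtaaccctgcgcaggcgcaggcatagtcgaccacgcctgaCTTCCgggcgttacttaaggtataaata
Snhg5: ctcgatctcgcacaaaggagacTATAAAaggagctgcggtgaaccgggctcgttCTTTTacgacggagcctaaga
Snhg8: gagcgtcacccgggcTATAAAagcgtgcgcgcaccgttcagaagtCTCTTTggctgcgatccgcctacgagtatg
Snhg12: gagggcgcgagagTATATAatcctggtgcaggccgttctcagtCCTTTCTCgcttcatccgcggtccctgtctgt
The TATA letters stood in 4 of the 7 members, Gas5, Snhg5, Snhg8 and Snhg12, and in 2.96% of all 32851 promoter entries (1.76% when searched on the other strand). The pyrimidine run stood in 5 of the 7, these 4 and Snhg3, and in 30.7% of all entries (34.9% on the other strand). Both stood together in 4 of the 7 members and in 1.03% of all entries. Neither was found in the windows of Zfas1 and Snhg1, nor in the other RefSeq entry of Gas5. A match is a description of letters, not of a bound site.

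Zfas1 was the most variable of the 8 and held a large share of their counts. This RNA is named as the antisense RNA of Znfx1, a gene on the opposite strand. Its TMM-normalized level (CPM scaled by edgeR's factors for library composition) was 2103 and 1038 CPM in the vehicle libraries. It was 173, 217 and 82.4 CPM with mobocertinib, 34.0, 70.5 and 47.8 with T-DM1, 28.4, 101 and 79.7 with the combination, and 40.9, 42.3 and 48.2 in the resistant nodules. Both vehicle libraries lay above all 12 others, and all 3 mobocertinib libraries lay above all T-DM1 and all resistant libraries. The group means were 1571 ± 753 CPM (SD, n = 2) in vehicle, 157 ± 68.5 (n = 3) with mobocertinib, 69.8 ± 37.4 (n = 3) with the combination, 50.8 ± 18.4 (n = 3) with T-DM1 and 43.8 ± 3.87 (n = 3) in the resistant nodules. In this order only vehicle and mobocertinib, the first neighbours, did not overlap. Across the 12 libraries without vehicle Zfas1 spanned 7.60-fold, and the other members spanned 2.37-fold (Snhg5) to 6.91-fold (Snhg6).

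**Figure D1:**
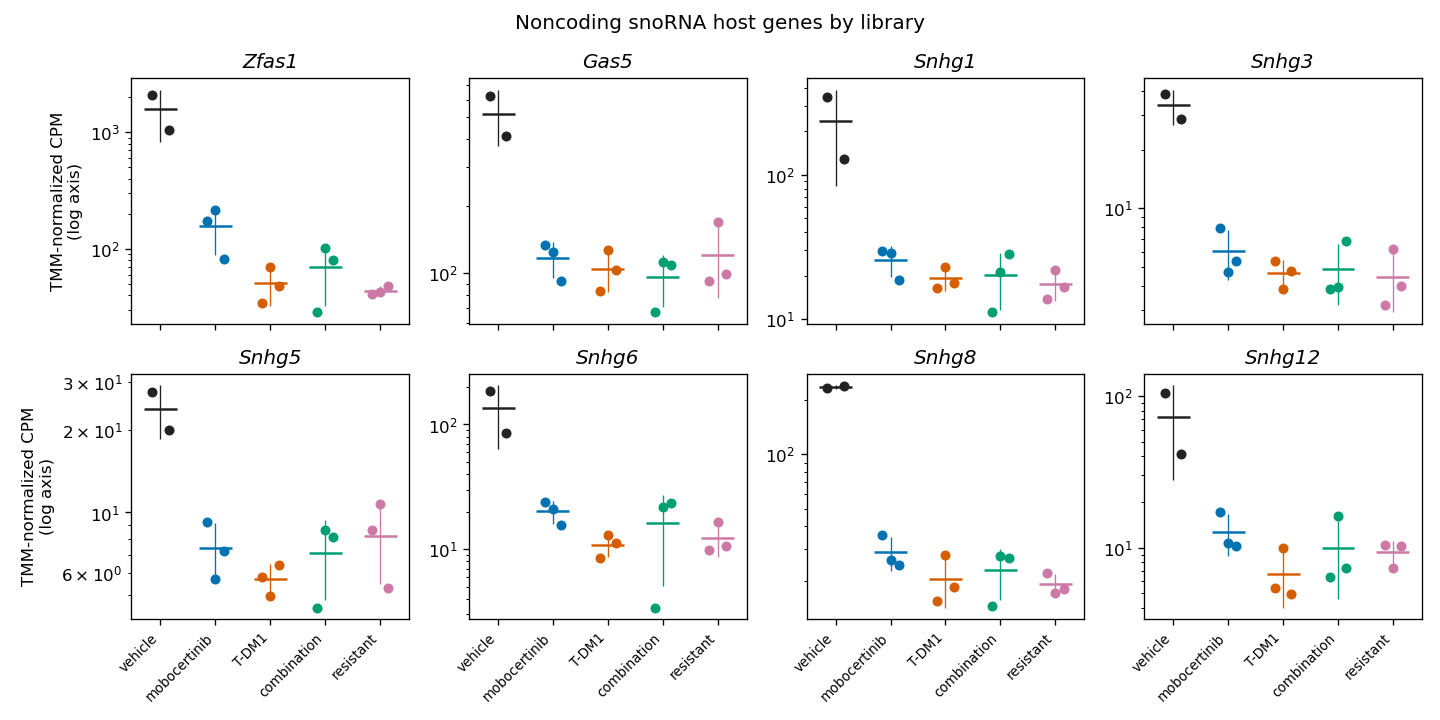
TMM-normalized CPM of each of the 8 genes on a log axis, 1 panel per gene, for the 5 groups on the x axis (2 vehicle libraries, 3 in each other group). Points are libraries, horizontal lines group means and vertical lines 1 SD. The vehicle points lie above all others in every panel, and the Zfas1 points of mobocertinib (82.4 to 217) lie above those of T-DM1 and of the resistant nodules.

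Gas5, whose introns hold the largest number of snoRNAs in the family, stood at 622 and 414 CPM in vehicle. Its other libraries had 133, 125 and 92.5 CPM with mobocertinib, 83.0, 127 and 103 with T-DM1, 66.7, 112 and 109 with the combination, and 92.2, 169.7 and 99.3 in the resistant nodules. The 4 groups without vehicle overlapped throughout, and resistant library 2 was the highest of the 12. Snhg1, which holds Snord22 and 7 further snoRNA entries, stood at 346 and 128 CPM in vehicle, with a 2.70-fold gap between these 2 libraries. Its other libraries had 29.7, 28.9 and 18.6 CPM with mobocertinib, 16.4, 23.1 and 17.7 with T-DM1, 11.1, 21.0 and 28.3 with the combination, and 13.7, 22.0 and 16.8 in the resistant nodules. Vehicle was again apart, and no neighbouring pair of the other groups was.

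Snhg8, host of the box H/ACA snoRNA Snora24, which belongs to the class that guides pseudouridylation, was the most even in vehicle, at 232 and 239 CPM. Its other libraries had 35.6, 26.0 and 24.4 CPM with mobocertinib, 15.4, 27.7 and 18.3 with T-DM1, 14.5, 27.4 and 26.7 with the combination, and 22.1, 17.0 and 18.1 in the resistant nodules. The resistant libraries all lay under the mobocertinib libraries, while the T-DM1 and combination libraries overlapped with both. Snhg6, host of Snord87, stood at 185 and 84.9 CPM in vehicle. It had 23.7, 21.0 and 15.7 CPM with mobocertinib, 8.52, 12.97 and 11.2 with T-DM1, 3.37, 21.8 and 23.5 with the combination, and 9.78, 16.6 and 10.6 in the resistant nodules. The 3.37 CPM of combination library 1 was its lowest value, and that library was also the lowest of the 12 for Zfas1, Gas5, Snhg1, Snhg5 and Snhg8.

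Snhg12, host of Snora16a, Snora44, Snora61 and Snord99, stood at 105 and 41.1 CPM in vehicle. It had 17.2, 10.7 and 10.3 CPM with mobocertinib, 5.38, 9.87 and 4.91 with T-DM1, 6.41, 16.2 and 7.33 with the combination, and 10.4, 7.38 and 10.2 in the resistant nodules. The T-DM1 libraries all lay under the mobocertinib libraries. Snhg3, host of Snora73a and Snora73b, whose relatives act in the cleavage of precursor ribosomal RNA, stood at 38.7 and 28.9 CPM in vehicle and at 3.20 to 7.97 elsewhere. Snhg5, host of Snord50a and Snord50b, stood at 27.7 and 20.1 CPM in vehicle and at 4.46 to 10.7 elsewhere. Snhg3 had 78 to 645 counts in a library and Snhg5 103 to 461, and the 4 groups without vehicle overlapped for both.

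As a share of all counts, the 8 genes made up 0.248% of vehicle library 1 (95% Wilson interval 0.246% to 0.2497%, counting error only) and 0.108% of vehicle library 2 (0.107% to 0.109%). The other 12 libraries had 0.0151% to 0.0514%. Zfas1 alone held 57.5% and 52.0% of the family's counts in the vehicle libraries. Its part was 49.4% in mobocertinib library 2 and 14.5% in resistant library 2, the highest and lowest of the other 12. Without Zfas1, the remaining 7 genes took 0.105% and 0.0518% in vehicle and 0.0120% to 0.0264% elsewhere.

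**Figure D2:**
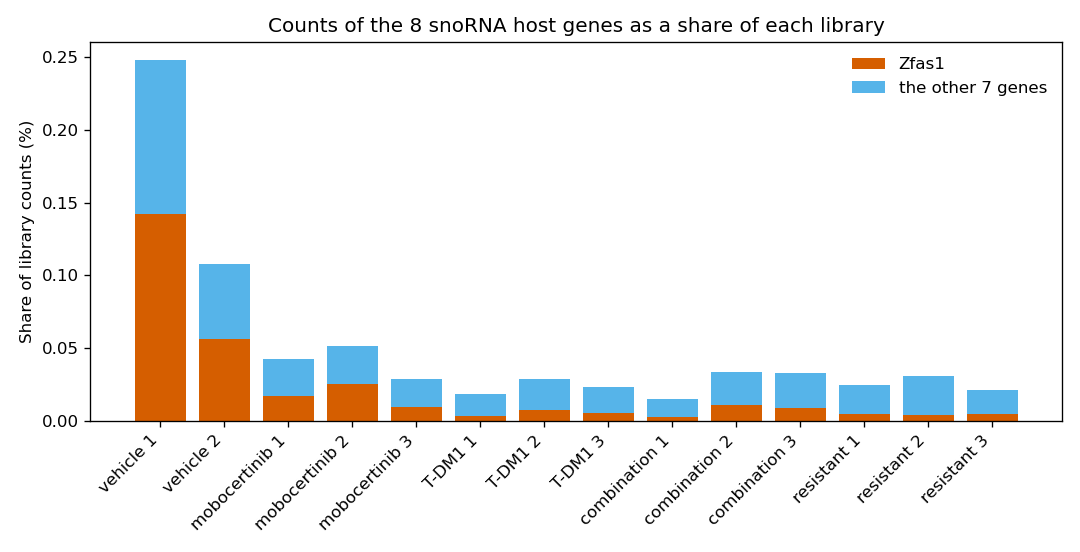
Counts of the 8 host genes as a percentage of all counts, 1 bar per library from 0, split into Zfas1 and the other 7 genes. Vehicle library 1 reaches 0.248% and vehicle library 2 reaches 0.108%, and the other 12 bars end between 0.0151% and 0.0514%.

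Against vehicle, all 8 members were lower in each of the 4 other groups without overlap of libraries, which is the pattern that chose the family. Over all genes tested, libraries were lower without overlap in 28.3% for mobocertinib, 26% for T-DM1, 29.9% for the combination, 25.6% for the resistant group, and 18.8% for all 4 groups at once. All 4 comparisons share the same 2 vehicle libraries. The mean of the 4 groups against vehicle gave log2 fold changes of -4.48 ± 0.343 (SE) for Zfas1, -3.54 ± 0.290 for Snhg1, -3.39 ± 0.211 for Snhg8 and -3.22 ± 0.401 for Snhg6. The smaller ones were -2.95 ± 0.333 for Snhg12, -2.76 ± 0.271 for Snhg3, -2.25 ± 0.240 for Gas5 and -1.76 ± 0.284 for Snhg5. By group, the Zfas1 values were -3.32 with mobocertinib, -4.95 with T-DM1, -4.49 with the combination and -5.16 in the resistant nodules, and those of Gas5 ran from -2.43 to -2.10. The median over the 8 genes was -3.08, and it was -2.52 without vehicle library 1, which moved Zfas1 to -3.85, Snhg1 to -2.62, Snhg6 to -2.52 and Snhg12 to -2.09. The median was -2.95 without Zfas1, 0.13 over all genes tested, and -1.01 over 1262 noncoding genes tested. The 81 ribosomal protein genes had a median of -2.71, 478 noncoding genes with a median transcript under 1 kb had -1.47, and 1243 coding genes of that length had -1.54. The median transcripts of the members measured 488 bases (Snhg8) to 1011 bases (Snhg12).

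The size of the gap to vehicle changed with the scale on which it was read. TPM, the authors' values per transcript length and library, was at hand for 7 members and not for Zfas1. In TPM, vehicle library 1 lay above all 12 others in 6 of the 7 genes, and vehicle library 2 in 2 of the 7, Snhg1 and Snhg8. Snhg8 had 267 and 196 TPM in vehicle and 44.4 to 94.3 elsewhere, so both vehicle libraries were apart on both scales. Snhg1 had 291 and 77.6 TPM in vehicle and 29.0 to 69.1 elsewhere, which left vehicle library 2 only just above the rest. Snhg6 had 206 and 69.2 TPM against 9.36 to 76.1, with vehicle library 2 inside the range of the others. Vehicle library 2 was also inside that range for Gas5 (272 TPM against 215 to 422), Snhg12 (24.2 against 10.9 to 35.8) and Snhg5 (8.37 against 6.77 to 16.5). For Snhg3 it had 9.26 TPM, under all 12 others (12.1 to 27.1), although in CPM it was above them all. Counts and TPM differed by gene, not only by 1 factor per library. By library totals alone, Snhg3 had 26.2 and 15.6 CPM in the vehicle libraries, beside 39.8 and 9.26 TPM. Snhg8 had 157 and 130 CPM by library totals, beside 267 and 196 TPM. What sets counts and TPM apart was not tested.

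**Figure D3:**
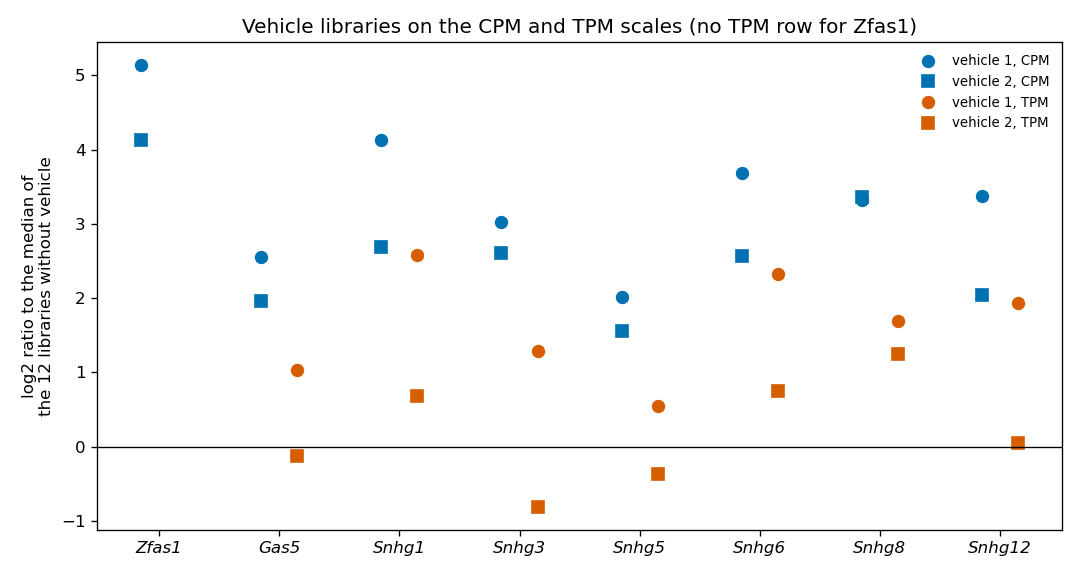
log2 ratio of each vehicle library to the median of the 12 other libraries, for each gene, in TMM-normalized CPM (blue) and in TPM (orange); circles are vehicle library 1 and squares vehicle library 2. All CPM points lie above 0, whereas in TPM vehicle library 2 lies under 0 for Gas5, Snhg3 and Snhg5.

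On the log2(TPM + 1) scale, which understates the change of low genes, the mean of the 4 groups against vehicle was -1.67 for Snhg8, -1.66 for Snhg1, -1.56 for Snhg6 and -1.10 for Snhg12. It was -0.44 for Gas5, -0.14 for Snhg3 and -0.13 for Snhg5. With mobocertinib alone the TPM value of Snhg3 was 0.08 and in the resistant nodules that of Snhg5 was 0.12, so these 2 changed direction there. The median of all genes itself moved from 0.13 to 1.18 on the TPM scale and to 0.96 when only library totals were used. When the smooth relation of each library to transcript length was taken out of the counts, Zfas1 kept -3.24, Snhg1 -2.17, Snhg12 -2.03, Snhg8 -1.99, Snhg6 -1.91 and Snhg3 -1.40, and Gas5 (-0.85) and Snhg5 (-0.68) moved closest to 0. The order of levels between genes can be read in TPM only: over the 12 libraries without vehicle the medians were 297 TPM for Gas5, 82.3 for Snhg8, 48.6 for Snhg1, 41.2 for Snhg6, 23.3 for Snhg12, 16.3 for Snhg3 and 10.8 for Snhg5.

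Between the 4 groups without vehicle, none of the 8 genes passed the threshold (Benjamini-Hochberg adjusted p under 0.05 over all genes tested, edgeR's quasi-likelihood test) in any of the 6 pairs. Few genes did so at all: 0.0279% of all genes tested in T-DM1 against mobocertinib, 0.00558% in resistant against mobocertinib and in resistant against combination, and 0% in the other 3 pairs. In the test for any difference among the 4 groups, 0 of the 8 and 0.0279% of all genes passed. At an unadjusted p under 0.05 the member counts were 1, 1 and 1 in the 3 pairs with mobocertinib, each time Zfas1, and 0 in the other 3. Of all 17933 genes tested, 1714, 262 and 1394 did so in T-DM1, combination and resistant against mobocertinib. In combination against T-DM1, resistant against T-DM1 and resistant against combination, 915, 2348 and 1489 did. With limma-voom 0 members passed in every pair and in the test over the 4 groups. DESeq2 passed 1 member, Zfas1, in T-DM1 against mobocertinib and in the test over the 4 groups, and 0 in the other 5 pairs. Over all genes DESeq2 called 428 in T-DM1 against mobocertinib and 1 to 505 in the other 5 pairs. Its count over all genes in the test over the 4 groups is not given here, and edgeR's share does not stand for it.

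Zfas1 had the largest differences of the family in the 3 pairs with mobocertinib. It was lower with T-DM1 than with mobocertinib by a log2 fold change of -1.63 ± 0.478 (SE; 95% interval -2.66 to -0.60; edgeR adjusted p 0.258), lower in 3 of 3 libraries. DESeq2, which called 428 genes in this pair where edgeR called 5, gave Zfas1 an adjusted p of 0.0326. In the resistant nodules Zfas1 was lower than with mobocertinib by -1.84 ± 0.481 (95% interval -2.89 to -0.80; edgeR adjusted p 0.622, DESeq2 adjusted p 0.0581), again in 3 of 3 libraries. The combination differed from mobocertinib by -1.17 ± 0.472 (95% interval -2.19 to -0.15; edgeR adjusted p 1), with overlapping libraries. When the smooth relation to transcript length was taken out, these 3 differences were -1.53, -1.48 and -1.07. For any difference among the 4 groups, Zfas1 had an edgeR adjusted p of 0.331 and a DESeq2 adjusted p of 0.0133. Without DESeq2's count over all genes in that test, whether its call of Zfas1 is unusual cannot be judged here.

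The other 7 genes differed less than Zfas1 in the pairs against mobocertinib, and their intervals included 0 in every pair. Against T-DM1 the largest values were 0.57 for Snhg6 with the combination and 0.52 for Snhg5 in the resistant nodules. Zfas1 had 0.46 and -0.21 there. With T-DM1 against mobocertinib, Snhg12 had a log2 fold change of -0.91 (95% interval -1.87 to 0.04) and Snhg6 -0.89 (-2.05 to 0.27), and all libraries of both were lower. Libraries were lower without overlap in 3 of the 8 members there, Zfas1, Snhg6 and Snhg12, and in 9.32% of all genes tested. Snhg8 had -0.59 (-1.20 to 0.02) in resistant against mobocertinib. Libraries were lower without overlap in 2 of the 8 there, Zfas1 and Snhg8, and in 5.75% of all genes. Gas5 was the member nearest to no difference in these pairs, with -0.17 (-0.82 to 0.49) for T-DM1 and 0.04 (-0.61 to 0.70) for the resistant nodules against mobocertinib. Between T-DM1, combination and resistant nodules, the largest values in either direction were -0.67 (-1.69 to 0.34) for Zfas1 in resistant against combination and 0.57 (-0.58 to 1.73) for Snhg6 in combination against T-DM1. The medians over the 8 genes were -0.46, -0.32 and -0.50 for T-DM1, combination and resistant against mobocertinib, where those of all genes were 0.01, -0.01 and 0.07. These 3 comparisons share the mobocertinib libraries.

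**Figure D4:**
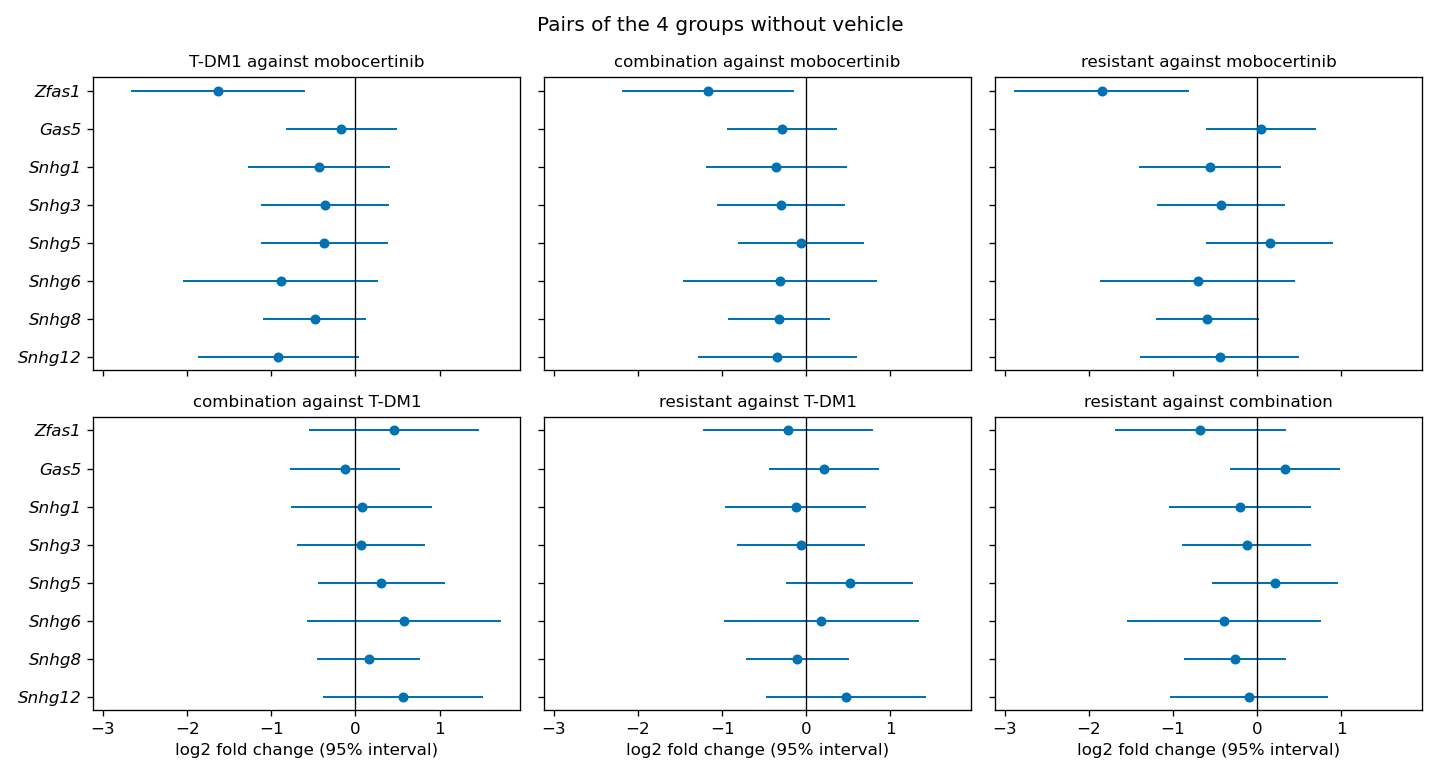
log2 fold change of each gene (points) with its 95% interval (bars) in the 6 pairs of the 4 groups without vehicle, from edgeR's fit over 14 libraries. Zfas1 alone has intervals that exclude 0, in the 3 pairs against mobocertinib (-1.63, -1.17 and -1.84).

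The members varied together, but less so once vehicle was left out. Across all 14 libraries Pearson's r of log2 CPM between 2 members was 0.83 to 0.97 over the 28 pairs of genes (median 0.92), values that the gap to vehicle largely sets. Over the 12 libraries without vehicle it was 0.02 to 0.91 (median 0.54). Snhg1 and Snhg6 were the closest pair and Snhg3 and Snhg12 the least close. The points share libraries, depth and composition, and the values are descriptions only. The members' mean deviation (log2 CPM minus each gene's mean) had r = 0.77 (Spearman's rho 0.69) with the ribosomal protein share of counts over these 12 libraries, 0.74 (0.71) with the share of short coding genes and 0.04 (0.28) with the total count. By gene, the r with the ribosomal protein share was 0.86 for Zfas1, 0.84 for Snhg1, 0.76 for Snhg6 and 0.71 for Snhg8, and 0.44 or less for Gas5, Snhg3, Snhg12 and Snhg5. The part of library make-up in the differences of Zfas1 was not tested beyond the correction for transcript length above.

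**Figure D5:**
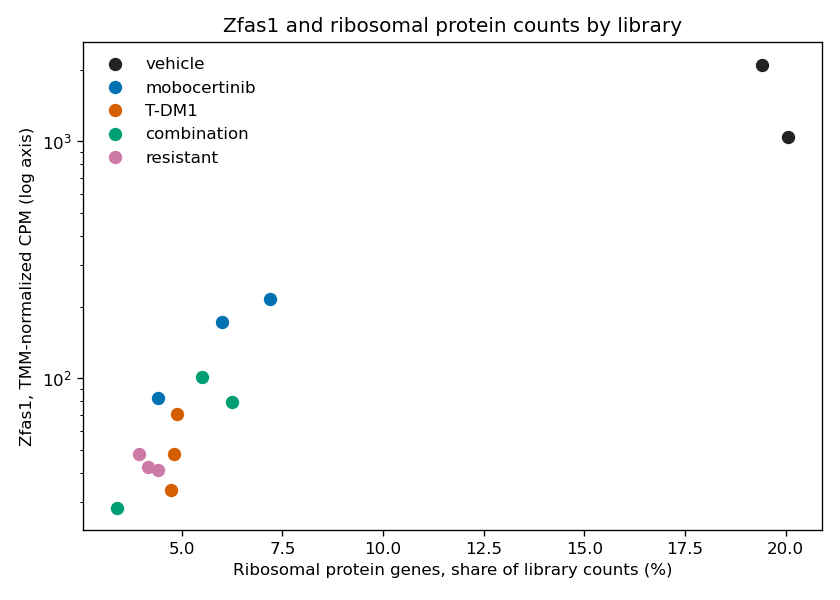
Zfas1 in TMM-normalized CPM (log axis) against the share of counts in ribosomal protein genes, 1 point per library, colored by group. The 2 vehicle libraries sit near 20% and above 1000 CPM, and the other 12 between 3.39% and 7.19% with 28.4 to 217 CPM.

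By pattern, the genes outside the family most like the members' mean over all 14 libraries were Timm8b (r = 0.984), Rps6 (0.981), Lsm1 (0.979), Rpl17 (0.979) and Atp5md (0.979). Over the 12 libraries without vehicle they were Vti1b (0.938), Mrps9 (0.935), Timm8b (0.929), Rps27 (0.916) and Arhgap27os2 (0.916). Timm8b, a small chaperone of the mitochondrial intermembrane space, was the gene on both lists. Rps6, Rpl17 and Rps27 encode ribosomal proteins and Mrps9 one of the mitochondrial ribosome.

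The snoRNAs themselves were hardly seen. Of 29 snoRNA symbols of the 8 hosts with a row in the count table, 25 had 0 counts in all libraries. Together the 29 rows had 325 counts, against 170094 for the hosts. Most came from Snora73b of Snhg3, with 177 counts in the 2 vehicle libraries and 96 in the other 12. The host values therefore hold the spliced and partly spliced RNA that was counted, and the snoRNA levels cannot be read from them. Reads from retained introns can enter the host counts, since annotated exons of some transcript cover snoRNA bodies in 7 of the 8 genes.

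Genes that share bases with a member set a limit on 3 of them. It is not stated whether reads were counted by strand, which matters for genes on the opposite strand. Counting by strand would not separate the overlaps on the same strand, those of Gm27494 with Zfas1 and of Rcc1 with Snhg3. Exons of Znfx1, an RNA helicase gene, cover 82 bases of Zfas1, or 2.80% of its exon bases. Znfx1 had 29.2 and 28.7 CPM in vehicle and 46.1 to 91.6 elsewhere, opposite in direction to Zfas1. The mean of the 4 groups was higher than vehicle by 1.15 ± 0.211 (log2, edgeR adjusted p 0.000869). With the length correction it was 0.08 and did not pass, while with library totals (1.99) and in TPM (2.35) it passed as higher, so the size and the call rest on the scale. Gm27494, annotated as a miscellaneous RNA on the strand of Zfas1, covers 6.45% of its exon bases and had 0 counts in all libraries. Rcc1, which encodes a nuclear exchange factor, shares 13.7% of the exon bases of Snhg3, and Gm17300, a noncoding gene on the opposite strand, shares 71.5% and had at most 1 count in a library. Rcc1 did not pass against vehicle (0.23 ± 0.319, edgeR adjusted p 0.58) or with the length correction (0.14), and passed as higher with library totals (1.06) and in TPM (1.64). Mcmdc2 shares 11.1% of the exon bases of Snhg6 and had at most 2 counts in a library. In TPM, Mcmdc2 had 0.58 to 2.42 and Gm17300 0 to 1.97, also in libraries with 0 counts. The low counts therefore do not show that these neighbours were silent. The other 5 members shared exon bases with no other gene.

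Other noncoding snoRNA hosts were read in the same contrast with vehicle, as a description. Of 14 listed, 13 were in the count table and 12 were tested, and 11 of the 12 were lower in the mean of the 4 groups than in vehicle (edgeR adjusted p under 0.05), 0 were higher, and the median log2 fold change was -3.19. Among all genes tested, 22.8% were lower and 21.5% higher in this contrast, which is the one that chose the family. The list was also chosen with earlier results of these data known, and rests on the same vehicle libraries. Its counts are therefore no independent test of the members' pattern. On the other scales, the shares of all genes called higher and lower were 41.9% and 10.2% with library totals, 12.5% and 19.9% with the length correction, and 62.6% and 4.44% in TPM. Snhg9, a host of an H/ACA snoRNA, fell by 4.69 on the log2 scale and Snhg18 fell by 4.33, while Snhg11 (-1.18 ± 0.663) did not pass. With library totals 11 of 12 were lower, with the length correction 10 of 10, and in TPM 4 of 9 (median -1.39). With vehicle library 1 left out, 10 of 12 were lower. None of the 12 passed with edgeR in the 6 pairs or in the test over the 4 groups (0 to 3 at an unadjusted p under 0.05, and 0 with limma-voom). At that unadjusted p edgeR gave 262 to 2348 of all 17933 genes in the same comparisons. DESeq2 passed 1 of the 12, Epb41l4aos, in T-DM1 against mobocertinib, where it called 428 of all genes. Epb41l4aos had the smallest p among them for any difference between the 4 groups (edgeR adjusted p 0.380), with 24.0 ± 10.1 CPM (SD, n = 3) in mobocertinib and 8.49 ± 1.25 (n = 3) in T-DM1. Snhg9 (adjusted p 0.573) and Rian (0.648), an imprinted host, followed.

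Among proteins of snoRNA particles and of their assembly, those called against vehicle on the main scale were all lower. Of 17 core and assembly proteins of snoRNA particles, 5 were lower than vehicle (29.4%) and 0 higher (median -0.07). Over all genes tested, 22.8% were lower and 21.5% higher. The 5 were Nop10 (-2.21 ± 0.211), Nhp2 (-1.94 ± 0.272), Znhit3 (-2.02 ± 0.250), Snu13 (-1.42 ± 0.180) and Nufip1 (-0.68 ± 0.222). Nop10 and Nhp2 belong to the H/ACA core, Snu13 to the box C/D core, and Znhit3 and Nufip1 to its assembly. Fbl, the methyltransferase of box C/D particles, had 0.20 ± 0.220 and did not pass. The directions of this list rest on the scale, since 9 were higher and 4 lower with library totals, 1 and 6 with the length correction, and 12 and 0 of 16 in TPM. The 75% higher in TPM stand beside 62.6% of all genes on that scale, and the 52.9% with library totals beside 41.9%. With the length correction 35.3% were lower, beside 19.9% of all genes. Of the 17, none passed with edgeR between the 4 groups (0 to 5 at an unadjusted p under 0.05, and 0 with limma-voom). At that unadjusted p edgeR gave 262 to 2348 of all 17933 genes in the same comparisons. Nop58 (edgeR adjusted p 0.411), Fbl (0.459) and Nop56 (0.519) had the smallest p of the 17 for any difference among the 4 groups. DESeq2 passed Nop58 and Fbl in T-DM1 against mobocertinib, where it called 428 of all genes. Nop58 had 42.0 ± 10.8 CPM (SD, n = 3) with T-DM1 and 20.4 ± 4.47 (n = 3) with mobocertinib.

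Factors of nonsense-mediated decay, the pathway that degrades several spliced host RNAs, moved in both directions against vehicle. Of 15, 6 were higher, such as Smg6 (1.76 ± 0.203 log2) and Upf2 (1.64 ± 0.316), and 2 lower (Magoh and Rbm8a, members of the exon junction complex, which fell by 1.57 and 1.05 log2). With the length correction 3 were higher and 1 lower, in TPM 13 and 0, and with library totals 12 and 1. The share higher was 40% on the main scale, where 21.5% of all genes were, 20% with the length correction (12.5% of all genes), 80% with library totals (41.9%) and 86.7% in TPM (62.6%). Without vehicle library 2, 5 were higher and 1 lower. None of the 15 passed with edgeR between the 4 groups (0 to 7 at an unadjusted p under 0.05, and 0 with limma-voom). The 7 were in resistant against T-DM1, where 2348 of all 17933 genes reached that unadjusted p. DESeq2 passed Upf3a in T-DM1 against mobocertinib and Casc3 in resistant against T-DM1. In these pairs it called 428 and 505 of the 17933 genes. Of 20 messenger RNAs of the TOP class that encode no ribosomal protein, 10 were lower, such as Fau (-2.95 ± 0.274) and the elongation factor gene Eef1b2 (-2.92 ± 0.217), and 2 were higher, Eif4b and Pabpc1. Without vehicle library 2, 10 were lower and 0 higher, which ended both of the higher calls. In TPM this count turned to 10 higher and 4 lower of 19, in library totals it was 5 and 8, and with the length correction 1 and 9. The share lower was thus 50% on the main scale, where 22.8% of all genes were. It was 21.1% in TPM (4.44% of all genes), 40% with library totals (10.2%) and 45% with the length correction (19.9%). Nap1l1 (edgeR adjusted p 0.573), Hnrnpa1 (0.594) and Fau (0.665) had the smallest p of this list for any difference among the 4 groups. Of 10 regulators of TOP messenger RNAs, 6 were higher (Eif4ebp2, Larp1, Tsc1, Tsc2, Rptor and Mtor) and 0 lower, which was 4 and 0 without vehicle library 2 and 5 and 1 without vehicle library 1. With the length correction 1 was higher and 1 lower (10% each, against 12.5% and 19.9% of all genes), with library totals 8 and 0, and in TPM 10 and 0. The share of these regulators higher was 60% on the main scale (21.5% of all genes), 80% with library totals (41.9%) and 100% in TPM (62.6%). Larp4 (edgeR adjusted p 0.594), Rps6kb1 (0.614) and Tsc1 (0.617) had their smallest p for any difference among the 4 groups. The 194 tested coding genes that hold snoRNAs had 70 higher and 30 lower (median 0.51), against 31 and 34 of 193 with the length correction and 142 and 3 of 176 in TPM. With library totals the counts were 119 and 10 (61.3% and 5.15%, against 41.9% and 10.2% of all genes). On the main scale 36.1% were higher and 15.5% lower, against 21.5% and 22.8% of all genes. With the length correction 16.1% were higher and 17.6% lower, close to the shares of all genes (12.5% and 19.9%). In TPM 80.7% were higher, beside 62.6% of all genes. Top2a (edgeR adjusted p 0.338), Unc13c (0.362) and Nop58 (0.411) had the smallest p of these hosts for any difference among the 4 groups. None of these 3 lists had a gene that passed with edgeR or limma-voom in the 6 pairs or in the test over the 4 groups. At an unadjusted p under 0.05 edgeR gave 0 to 2, 0 to 3 and 1 to 30 genes, beside 262 to 2348 of all 17933 genes. The 30 were in resistant against T-DM1, the pair with 2348. After adjustment DESeq2 called 0, 0 and up to 6 genes of these lists. The 6 were Chd8, Cryl1, Med24, Prpf39, Ralgps1 and Unc13c, in resistant against T-DM1. In that pair DESeq2 called 505 of the 17933 genes. DESeq2 also called Nop58 and Top2a in T-DM1 against mobocertinib (428 of all genes), and Top2a and Unc13c in the test over the 4 groups. Its count over all genes in the latter test is not given here.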

How the data were processed

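The authors' deposited tables were used as given: whole-number counts for 55291 gene symbols, and TPM for 47606 genes (per transcript length and library size, by the authors). STAR, RSEM and the mm10 build are named per the submitters' processing notes. Which step each served, their versions, the annotation and any use of strand: not given in the sources used here. Groups came from the treatment labels; replicate numbers follow accession order and pair nothing. No 2 of the 13 pairs of libraries within a group agreed within sampling noise (ratios of chi-square to its degrees of freedom were 87.9 to 504), so none was taken as 1 library deposited again; this does not show that they are biological replicates.

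Counts were fitted in edgeR 4.0.16 (R 4.3.3) with TMM factors, filterByExpr and the robust quasi-likelihood test, 1 fit over 14 libraries and 17933 genes with group means (9 residual degrees of freedom), and p-values were adjusted over all genes tested by Benjamini-Hochberg. The SE is the fold change divided by the square root of F. The procedure was tested on simulated data. Alternatives included limma 3.58.1 (voom, and trend on log2(TPM + 1) with a TPM of 1 in 2 libraries), DESeq2 1.42.0, other factors and filters, a transcript-length offset (lowess, span 0.3) and leaving out each library. Lengths and overlaps came from GENCODE M21.

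The members and lists were chosen with earlier results of these data known. Named genes were all members, genes sharing exon bases with them, the 5 genes most like the members' mean with and without vehicle, the 3 of smallest p for any difference among the 4 groups in each list, and any called in a pair, up to 4 in a pair; genes that DESeq2 alone called are named beside its counts. The other list genes named were chosen after their values were seen.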

Additional observations from a re-analysis of the deposited data

How the results depend on the processing

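No library left out changed a call between the 4 groups without vehicle: over 14 fits that each left out 1 library, members called numbered 0 to 0 in each of the 6 pairs and in the test over the 4 groups. DESeq2 called 1 member, Zfas1, in T-DM1 against mobocertinib, where it called 428 of all genes (edgeR 0 members). It also called Zfas1 in the test over the 4 groups (edgeR 0 members), where its count over all genes is not given here. The edgeR adjusted p of Zfas1 in the latter ran from 0.214 to 0.624 when 1 library was left out, and in T-DM1 against mobocertinib its log2 fold change ran from -1.94 to -1.34. Against vehicle, the median log2 fold changes of the members for mobocertinib, T-DM1, combination, resistant and the mean of the 4 were -2.63, -3.48, -2.96, -3.21 and -3.08. They were -0.68, -1.65, -1.07, -0.999 and -1.10 with log2(TPM + 1) (7 members), -1.63, -2.25, -1.89, -1.88 and -1.95 with the transcript length offset, and -1.86, -2.72, -2.18, -2.42 and -2.32 with library totals only, a choice made after seeing the data. Leaving out each library in turn gave ranges of -2.91 to -2.14, -3.79 to -2.66, -3.37 to -2.45, -3.43 to -2.71 and -3.30 to -2.52, and the smallest gap came each time without vehicle library 1 (-2.14, -2.66, -2.45, -2.71 and -2.52). With 2 vehicle libraries, the spread in that group rests on 1 degree of freedom, and the lone vehicle library is assumed to vary like the other groups. No paired analysis was possible because the labels carry no replicate numbers that groups share. The lowest count of a member in a library was 78, for Snhg3.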

Other observations

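Upf3a, a factor of nonsense-mediated decay, had the smallest p of its list for any difference among the 4 groups without vehicle (edgeR adjusted p 0.410). It stood at 33.7 ± 6.94 CPM (SD, n = 3) with T-DM1, with libraries at 28.0 to 41.4, and at 61.5 ± 14.2 (n = 3) with mobocertinib, 57.9 ± 8.22 (n = 3) with the combination and 56.4 ± 3.69 (n = 3) in the resistant nodules. The T-DM1 libraries did not overlap with those of the other 3 groups without vehicle. They did overlap with vehicle, where Upf3a stood at 37.3 ± 10.4 CPM (n = 2). In T-DM1 against mobocertinib alone, 9.32% of all genes tested were lower without overlap of libraries. The share for all 3 groups at once is not given here. Among coding genes that hold snoRNAs, Top2a, the DNA topoisomerase of dividing cells, had 21.3 ± 10.2 CPM (n = 3) with T-DM1 and 4.13 ± 2.60 (n = 3) with mobocertinib. It had 7.69 ± 2.40 (n = 3) with the combination, 9.93 ± 6.14 (n = 3) in the resistant nodules and 12.6 ± 4.21 (n = 2) in vehicle. Its edgeR adjusted p for any difference among the 4 groups without vehicle was 0.338.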
